A study of Mus musculus with 69 samples.

Results

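Proliferation and cell cycle genes were followed in the lungs of 69 C57BL/6 mice, each measured on its own 2-colour array. The members were a fixed list of 40 genes that dividing cells switch on to copy their DNA and to separate their chromosomes. The list was drawn up by gene function, with earlier results of these data known. Of the 40 genes, 38 were matched to a probe that passed the filter on dim signals. Prc1 and Rrm2 had no matching probe and were not analysed here. Mice received a single instillation into the trachea of vehicle (water) or of TiO2 nanoparticles at 18, 54 or 162 µg. The particle was either NRCWE-001, which is unmodified, or NRCWE-002, which carries a positive charge, and whole lungs were collected on day 1 or day 28. Each of the 12 exposed groups held 5 animals, the vehicle group of day 1 held 5 and that of day 28 held 4. The labels give no knockout, transgene or pooling, and each mouse is one array.

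A cell prepares to divide in ordered steps. The Mcm2 to Mcm7 proteins form the ring-shaped helicase that is loaded on origins in G1 and unwinds DNA in S phase, Pcna is the sliding clamp that holds the polymerases on DNA, and Rrm1, Tyms and Tk1 make deoxynucleotides. Cyclins with Cdk1 then drive the cell into mitosis, where kinetochore proteins, spindle motors, the Aurora and Polo kinases and the spindle checkpoint sort the chromosomes. E2F factors switch on many replication genes, while mitotic genes often carry a cell cycle homology region (CHR) read together with CCAAT boxes. In the adult lung few cells divide at any time. The 10 measured genes of DNA replication and nucleotide supply and the 28 measured genes of mitosis are described apart below. This split was also made with earlier results of these data known.

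The promoters are shown first, to set the motifs of the replication members beside those of the mitotic members. No difference between their shares was tested. RefSeq promoter windows of the GRCm38.p6 build, which run from 250 bases before to 50 bases after the start of transcription, were on hand for 32 of the 38 measured members. Each window was searched on both strands for the CHR string TTTGAA, its variant TTCGAA, the string CCAAT, and for E2F-type strings, which were TTCCCGC, its relative TTGGCGC and also TTCGCGC, some of whose matches overlap one another or a CCAAT. The CHR string was present in 16 of 23 mitotic promoters (69.6%), in 1 of 9 replication promoters (11.1%) and in 18.1% of all 27025 promoters. An E2F-type string was present in 5 of 9 replication promoters (55.6%), in 5 of 23 mitotic promoters (21.7%) and in 8.21% of all promoters. CCAAT was held by 77.8% of the replication promoters, 82.6% of the mitotic promoters and 37.9% of all promoters. The variant TTCGAA was found in 1 replication promoter (11.1%), in 3 mitotic promoters (13.0%) and in 1.57% of all promoters. A match is a string of letters and was not tested as a binding site.

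Printed below, 5′ to 3′ along the strand of the gene, are the windows of Mcm2 and Mcm7, the members that passed the test on day 1, of Mcm5, a further helicase subunit, and of Ccnb1, Cdk1 and Plk1, which stand for mitosis. Capitals mark matches to any of the strings above on either strand. They lie at chr6:88898731-88899030 on the minus strand (Mcm2), chr5:138171834-138172133 on the minus strand (Mcm7, the first of 2 windows listed), chr8:75109259-75109558 on the plus strand (Mcm5), chr13:100786437-100786736 on the minus strand (Ccnb1), chr10:69352863-69353162 on the minus strand (Cdk1) and chr7:122159185-122159484 on the plus strand (Plk1). Mcm2 and Mcm7 were chosen after their values were seen.
Mcm2: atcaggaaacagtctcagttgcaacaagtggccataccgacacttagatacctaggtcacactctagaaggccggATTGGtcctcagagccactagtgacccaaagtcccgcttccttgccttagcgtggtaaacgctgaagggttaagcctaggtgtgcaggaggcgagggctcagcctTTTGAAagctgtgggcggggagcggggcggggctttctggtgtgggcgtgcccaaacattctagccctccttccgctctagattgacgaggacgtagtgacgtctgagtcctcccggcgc
Mcm7: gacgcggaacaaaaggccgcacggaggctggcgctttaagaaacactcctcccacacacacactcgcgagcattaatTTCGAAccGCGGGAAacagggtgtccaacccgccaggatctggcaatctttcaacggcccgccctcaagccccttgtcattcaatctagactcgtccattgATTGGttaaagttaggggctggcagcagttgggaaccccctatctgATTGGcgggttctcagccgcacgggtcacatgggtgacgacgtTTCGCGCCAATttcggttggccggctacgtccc
Mcm5: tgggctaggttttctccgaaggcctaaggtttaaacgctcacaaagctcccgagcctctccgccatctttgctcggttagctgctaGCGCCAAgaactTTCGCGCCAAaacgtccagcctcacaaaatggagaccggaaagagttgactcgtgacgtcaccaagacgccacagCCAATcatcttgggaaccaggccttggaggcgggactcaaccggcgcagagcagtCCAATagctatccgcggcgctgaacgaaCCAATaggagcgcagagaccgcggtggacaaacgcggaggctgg
Ccnb1: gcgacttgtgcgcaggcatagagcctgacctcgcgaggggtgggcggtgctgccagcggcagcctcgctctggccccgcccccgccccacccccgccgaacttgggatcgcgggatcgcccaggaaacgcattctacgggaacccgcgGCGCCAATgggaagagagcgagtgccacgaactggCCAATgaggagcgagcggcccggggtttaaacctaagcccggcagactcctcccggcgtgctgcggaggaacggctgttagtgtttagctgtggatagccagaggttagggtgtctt
Cdk1: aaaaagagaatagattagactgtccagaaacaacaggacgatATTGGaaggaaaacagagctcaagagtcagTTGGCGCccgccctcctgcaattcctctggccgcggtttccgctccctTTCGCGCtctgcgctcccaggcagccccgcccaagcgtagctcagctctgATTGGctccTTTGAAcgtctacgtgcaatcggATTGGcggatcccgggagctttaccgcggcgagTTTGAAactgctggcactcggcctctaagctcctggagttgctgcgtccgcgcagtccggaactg
Plk1: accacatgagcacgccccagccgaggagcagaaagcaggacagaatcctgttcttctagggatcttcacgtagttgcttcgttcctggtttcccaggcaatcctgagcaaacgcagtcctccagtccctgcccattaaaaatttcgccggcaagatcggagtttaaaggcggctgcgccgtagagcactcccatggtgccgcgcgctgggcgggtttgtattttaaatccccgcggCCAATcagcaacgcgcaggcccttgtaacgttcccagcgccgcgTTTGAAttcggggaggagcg
The Mcm5 and Mcm7 windows each held 3 E2F-type matches. The Mcm2 window held none and was the 1 replication promoter with a CHR string. Cdk1 held 2 CHR strings and 2 E2F-type matches, Plk1 held 1 CHR string, and Ccnb1 held neither CHR form but had 2 CCAAT matches and 1 E2F-type match.

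Values are log2 ratios of the lung (Cy5) over a common reference RNA (Cy3), so that a higher value means more transcript in the lung relative to the same pool. All members had less signal in lungs without particles than in the reference pool. Over the 9 vehicle arrays the mean log2 ratios of the 38 members ran from -4.33 to -1.57, with a median of -3.22. For all 17628 genes tested the median log2 ratio was -0.06. The signal was well above background on all 69 arrays for 35 of the 38 members, and on 42, 57 and 68 arrays for Aurkb, Kif11 and Hmmr. In the NRCWE-001 54 µg group of day 28 no array had Aurkb well above background. The members varied more between animals of 1 group than most genes did, with a median within-group SD of 0.29 against 0.18. They also varied together: after group means were removed, the first principal component held 46.1% of their variance with all 38 loadings of 1 sign, against 22.9% for all genes. In whole lung RNA, fewer dividing cells and less of a transcript per cell cannot be told apart.

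Array quality was uneven. Between 61.4% and 87.8% of spots were well above background in the lung channel, and pairs of arrays correlated at r = 0.785 to 0.990. In 4 arrays the median correlation with the other arrays was below 0.9. They were replicate 2 of NRCWE-001 18 µg on day 1 and replicate 2 of NRCWE-002 at 18, 54 and 162 µg on day 28. The arrays lay on 18 slides of 4 and were scanned on 12 days, and values with the slide as a term are given where they change a result.

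On day 1 the replication genes had higher log2 ratios in most lungs that had received 54 or 162 µg of either particle, and the medians of the mitotic genes were smaller. At 162 µg of NRCWE-001 the median log2 fold change against vehicle was 0.45 for the 10 replication members and 0.13 for the 28 mitotic members. For NRCWE-002 at this dose it was 0.48 and 0.30, and the median of all genes lay within 0.01 of 0 for both particles. In the limma test with Benjamini-Hochberg adjustment over all genes, Mcm2 passed for NRCWE-001 and Mcm7 for NRCWE-002. Thus 1 of 38 members was called in each comparison, beside 0.664% (NRCWE-001) and 0.59% (NRCWE-002) of the genes tested. Both comparisons share the 5 vehicle animals of day 1.

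Mcm2, a subunit of the replicative helicase, had log2 ratios of -3.03, -2.78, -2.70, -2.92 and -2.96 in the 5 vehicle lungs of day 1. After 162 µg of NRCWE-001 the values were -2.36, -2.18, -2.28, -1.53 and -2.86. Replicates 1 to 4 lay above every vehicle animal, and replicate 5 lay within the vehicle range. The log2 fold change was 0.63 (SE 0.17, 1.55-fold), with an adjusted p of 0.0492 in limma. This call was lost in 9 of the 10 refits that left out 1 animal, and held without replicate 5. After 162 µg of NRCWE-002 the values were -2.30, -1.92, -2.03, -2.23 and -2.76, again with replicate 5 inside the vehicle range. The log2 fold change was 0.63 (SE 0.17) and the adjusted p was 0.0526, which did not pass. After 54 µg of NRCWE-002 all 5 values, -2.36, -2.11, -2.60, -1.89 and -2.21, lay above the vehicle animals. The log2 fold change there was 0.64 (SE 0.17), with an adjusted p of 0.12.

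Mcm7, a further subunit of the same ring, had vehicle values of -2.70, -2.72, -2.60, -2.77 and -2.74 on day 1. After 162 µg of NRCWE-002 they were -2.30, -2.03, -2.00, -2.06 and -2.60. The 4 highest lay clear of the vehicle range and replicate 5 lay at its upper edge. The log2 fold change was 0.51 (SE 0.12, 1.42-fold), with an adjusted p of 0.028. It was lost in 7 of the 10 refits that left out 1 animal and with the slide as a fixed term. With that term the log2 fold change was 0.47 and the adjusted p 0.0671. Mcm7 did pass with the slide as a random term and with the scan day as a term. After 162 µg of NRCWE-001 the values were -2.40, -2.18, -2.38, -1.78 and -2.72, and the log2 fold change of 0.41 (SE 0.12) did not pass (adjusted p = 0.11).

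The other helicase subunits, the clamp and the nucleotide enzymes had differences of 0.23 to 0.63 on the log2 scale at 162 µg that did not pass adjustment. Mcm5 had log2 ratios of -2.33, -2.48, -2.30, -2.28 and -2.61 in the vehicle lungs, and -1.96, -1.98, -2.17, -1.40 and -2.45 after 162 µg of NRCWE-001. It had -1.72, -1.95, -1.83, -1.96 and -2.49 after 162 µg of NRCWE-002, and the log2 fold change was 0.41 for both particles (adjusted p = 0.169 and 0.145). In each exposed group 4 of 5 Mcm5 values lay above all vehicle values. Tyms, the thymidylate synthase, had the largest difference of any member at 162 µg of NRCWE-002, 0.63 on the log2 scale with an SE of 0.20 and an adjusted p of 0.142. Its values there were -2.19, -1.89, -2.15, -1.97 and -2.91, against -2.91 to -2.69 in vehicle lungs. Pcna had log2 fold changes of 0.43 and 0.41 at 162 µg of NRCWE-001 and NRCWE-002. Mcm3 (0.50), Mcm6 (0.47) and Tk1, a thymidine kinase (0.46), stood next to Mcm2 among the members at 162 µg of NRCWE-001.

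Counted at an unadjusted p below 0.05, 9 of 10 replication members and 0 of 28 mitotic members were higher at 162 µg of NRCWE-001, where 7.31% of all genes differed in either direction. For NRCWE-002 at 162 µg the counts were 8 of 10 and 5 of 28, beside 9.36% of all genes. When each animal was left out in turn the replication count for NRCWE-001 ran from 5 to 10 and the mitotic count for NRCWE-002 from 0 to 11. For NRCWE-002 at 54 µg they were 6 of 10 and 0 of 28, beside 6.73%, and for NRCWE-001 at 54 µg they were 2 of 10 and 0 of 28, beside 4.98%. All 5 animals exposed to 54 µg of NRCWE-002 lay above all vehicle animals for 6 of the 10 replication members (Mcm2, Mcm3, Mcm5, Mcm6, Mcm7 and Rrm1) and for 0 mitotic members, beside 1.8% of all genes. At 162 µg no member was fully above vehicle for either particle, where NRCWE-001 had 1.7% and NRCWE-002 had 3% of the tested set so separated. No member was called at 54 µg, where 0.113% of all genes were called for NRCWE-002 and 0% for NRCWE-001.

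At 18 µg on day 1 the replication members' median log2 fold change was -0.03 (NRCWE-001) and 0.04 (NRCWE-002), and 0 of 10 had an unadjusted p below 0.05 for either particle. The mitotic score at 18 µg of NRCWE-002, the mean of the 28 mitotic members minus that of vehicle, was 0.18 ± 0.084 (SD, n = 5), with 4 of 5 animals above every vehicle animal, and at 54 µg it was 0.18 ± 0.30 (SD, n = 5). No member was called at 18 µg, where 0% of all genes were called. Across the 3 doses, the moderated F-test of the dose effect on day 1 called Mcm2 for NRCWE-001 (adjusted p = 0.0196) beside 0.879% of all genes. For NRCWE-002 it called Mcm2 (adjusted p = 0.0287) and Mcm7 (adjusted p = 0.0169), beside 0.777% of all genes. Of the 20 refits that left out 1 animal, the Mcm2 call was lost in 3 for NRCWE-001 and in 8 for NRCWE-002. The Mcm7 call was lost in 3. At an unadjusted p below 0.05 the F-test counted 7 of 10 (NRCWE-001) and 8 of 10 (NRCWE-002) replication members, and 0 of 28 mitotic members for both, where 8.52% and 8.57% of all genes were counted. Among the mitotic representatives, Mki67 had log2 fold changes of 0.09, 0.22 and 0.24 at 18, 54 and 162 µg of NRCWE-001 and 0.21, 0.20 and 0.50 at those of NRCWE-002. Top2a had 0.03, 0.12 and 0.12, and 0.52, 0.48 and 0.28. Cdk1 lay between -0.09 and 0.04, Ccnb1 between -0.10 and 0.19 and Plk1 between -0.12 and 0.02 over these 6 groups.

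**Figure D1:**
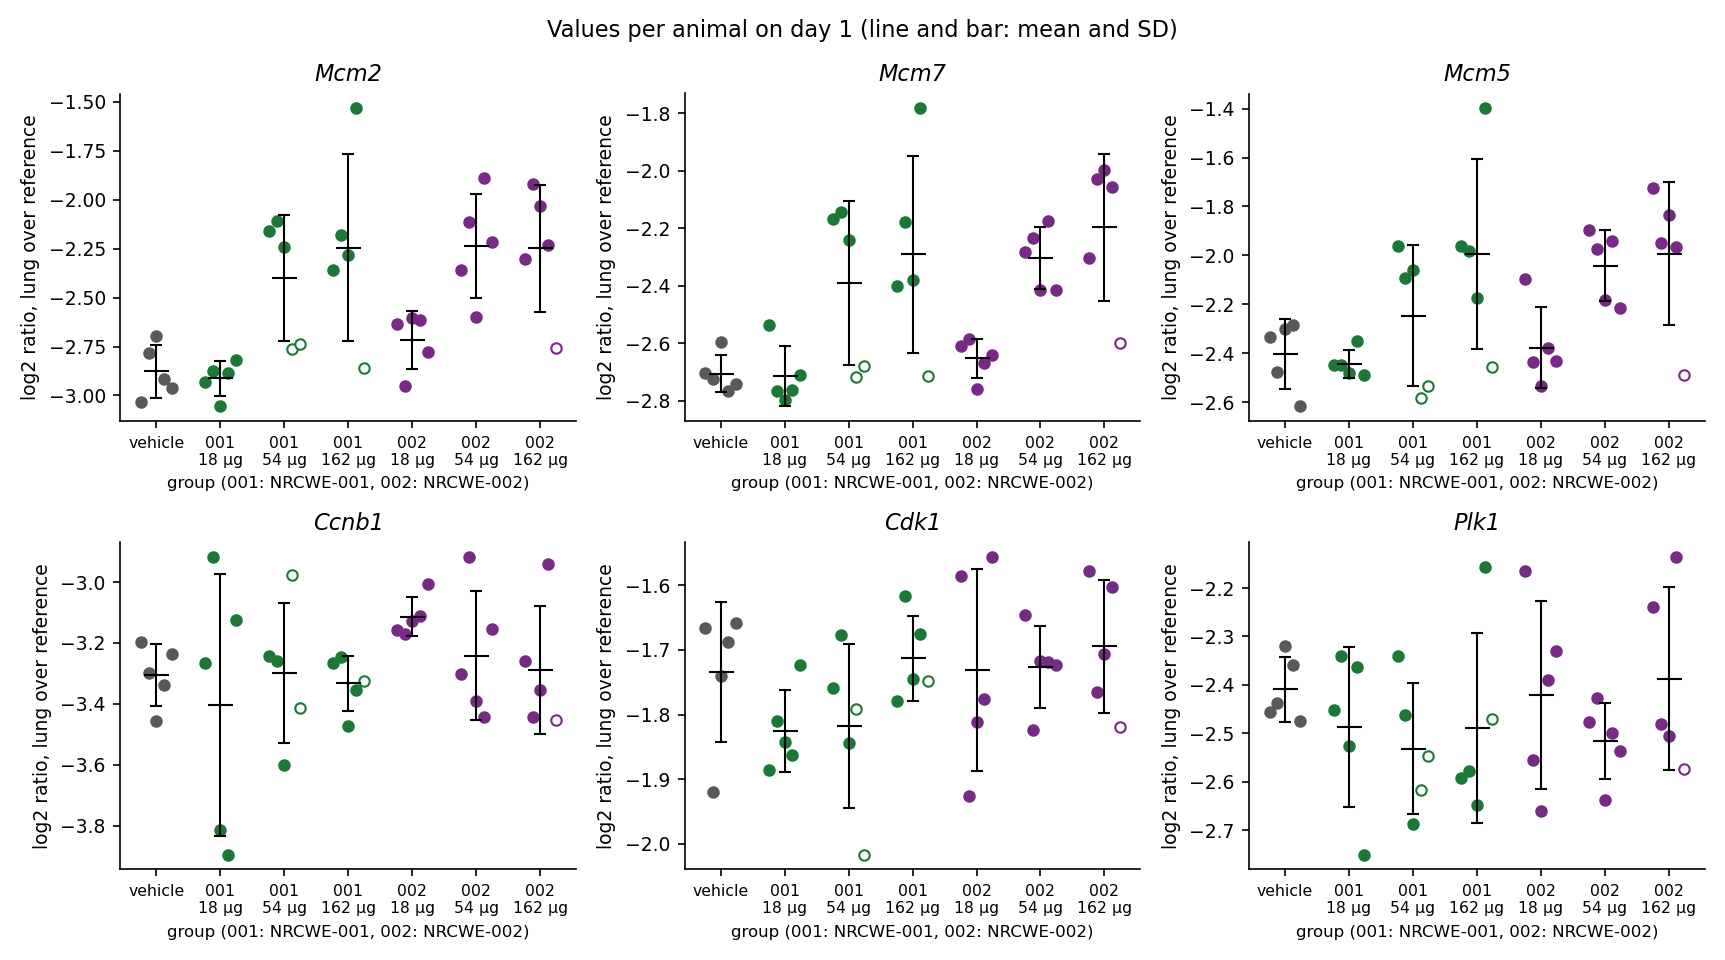
Log2 ratio of lung over reference RNA (y axis) in each animal of day 1 for Mcm2, Mcm7, Mcm5, Ccnb1, Cdk1 and Plk1, by group (x axis). Each point is 1 animal, the line and bar are the group mean and SD, and open points are the 4 animals at 54 or 162 µg whose Saa3 log2 ratio was below 0. Mcm2 in the open points of 162 µg was -2.86 and -2.76, inside the vehicle range of -3.03 to -2.70.

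A score was formed for each animal as the mean log2 ratio over the members minus the mean of the day 1 vehicle lungs. It is a description and was not tested. The replication score was 0.44 ± 0.39 (SD, n = 5) at 162 µg of NRCWE-001 and 0.47 ± 0.28 (SD, n = 5) at 162 µg of NRCWE-002, against a vehicle SD of 0.08 (n = 5). Among the 54 µg groups it was 0.24 ± 0.26 (SD, n = 5) and 0.37 ± 0.17 (SD, n = 5). Among the 18 µg groups it was -0.03 ± 0.05 (SD, n = 5) and 0.04 ± 0.09 (SD, n = 5).

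The SD was larger at the higher doses, where some animals had scores like those of vehicle lungs. The replication scores at 162 µg of NRCWE-001 were 0.41, 0.51, 0.36, 1.00 and -0.08, and at 162 µg of NRCWE-002 they were 0.49, 0.68, 0.64, 0.54 and -0.02. Those at 54 µg of NRCWE-001 were 0.48, 0.42, 0.39, -0.01 and -0.07, and at 54 µg of NRCWE-002 they were 0.34, 0.54, 0.21, 0.56 and 0.22. Vehicle scores ran from -0.09 to 0.12. So 16 of these 20 animals lay above every vehicle animal, and the other 4 lay within the vehicle range. In the 8 animals of 162 µg with a score above every vehicle animal, all 10 replication members were above the vehicle mean, and replicate 5 had 1 of 10 (NRCWE-001) and 4 of 10 (NRCWE-002). The vehicle animals of day 1 had 4, 7, 10, 2 and 2 of 10. The 8 animals were taken by the mean of the same 10 genes, so these counts are a description and no separate evidence.

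**Figure D2:**
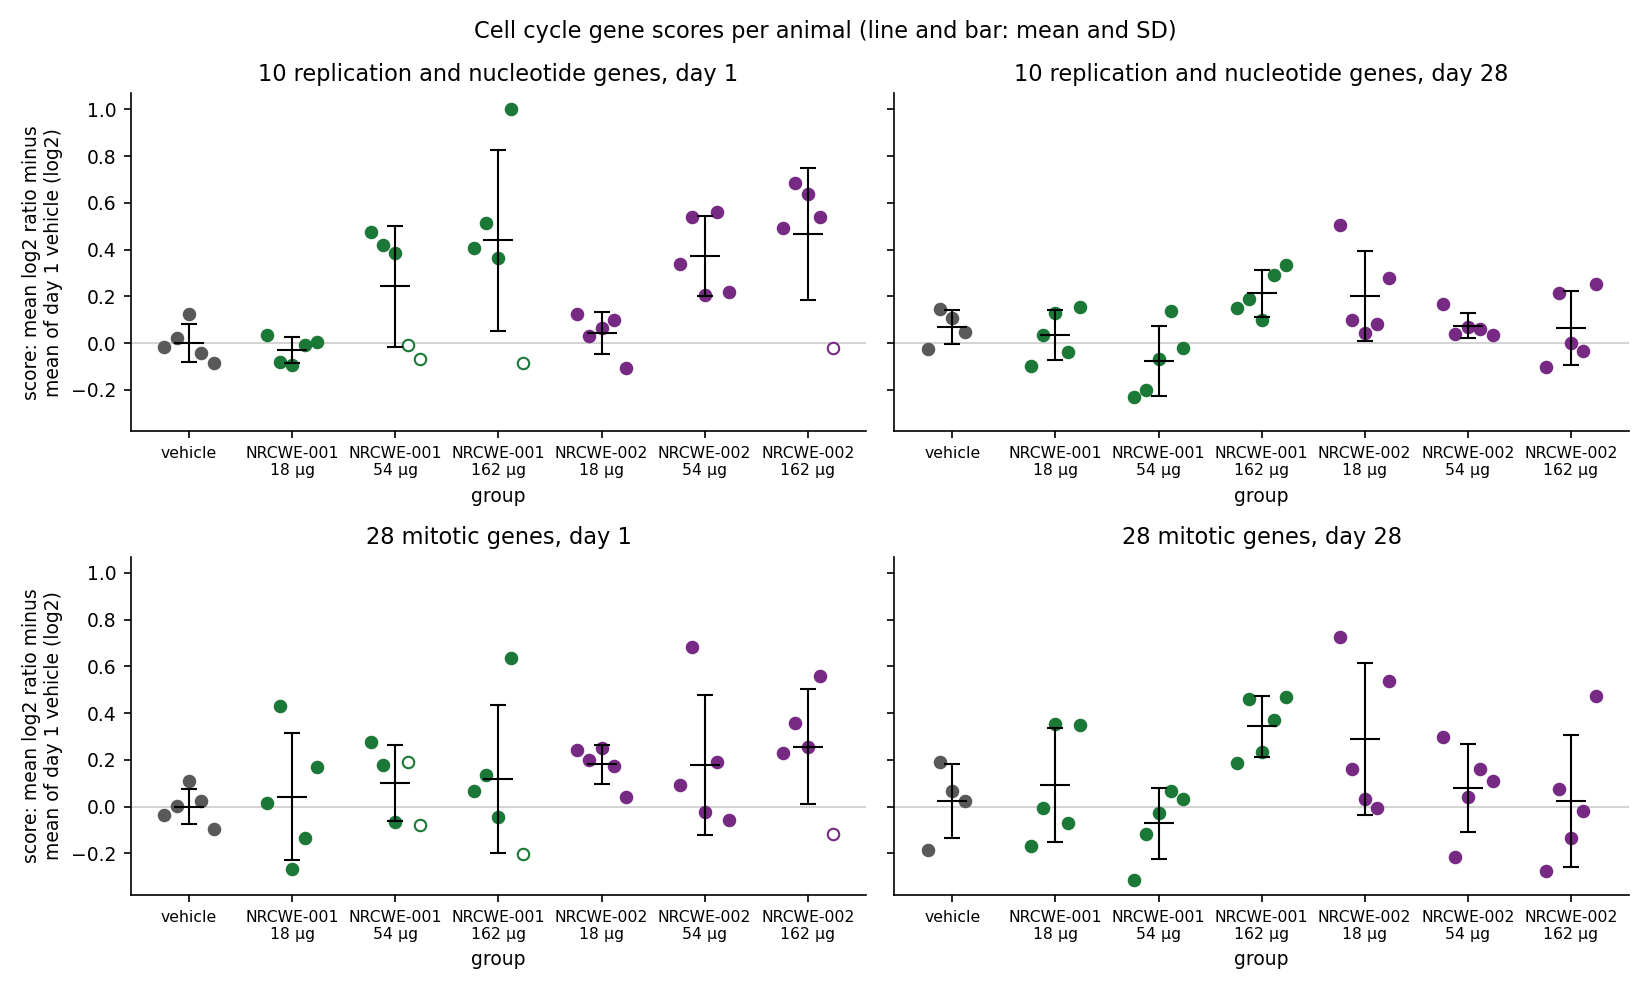
Score of the replication and of the mitotic members in each of the 69 animals (y axis, mean log2 ratio minus the mean of the day 1 vehicle lungs), by group and day (x axis). Each point is 1 animal, lines and bars are group means and SD, and open points are the 4 animals of day 1 at 54 or 162 µg whose Saa3 log2 ratio was below 0. On day 1 the replication score ran from -0.09 to 0.12 in vehicle lungs and from -0.08 to 1.00 at 162 µg of NRCWE-001.

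The same 4 animals also had the lowest Saa3 values among the 54 and 162 µg groups of day 1. Saa3, an acute-phase gene that is not a member, had log2 ratios of -3.95 to -3.19 in vehicle lungs of day 1. Saa3 at 162 µg of NRCWE-001 was 4.25, 3.61, 4.23, 5.02 and -3.74, and at 162 µg of NRCWE-002 3.34, 4.26, 4.30, 3.72 and -0.65. Saa3 at 54 µg of NRCWE-001 was 2.11, 1.48, 3.75, -3.78 and -4.16, and at 54 µg of NRCWE-002 it was above 0 in all 5 animals, up to 4.56. The low values belonged to replicate 5 of both 162 µg groups and to replicates 4 and 5 of NRCWE-001 54 µg, of which replicate 5 of NRCWE-002 162 µg still lay above the vehicle range. Of the 35 animals of day 1, the 16 with a Saa3 log2 ratio above 0 had replication scores of 0.21 to 1.00, and the 19 with Saa3 below 0 had scores of -0.11 to 0.12, so that the ranges did not meet. The mitotic scores of the same sets overlapped, at -0.07 to 0.68 and -0.27 to 0.43. Whether these 4 arrays carry the dose on their labels cannot be told from the files, and the group means, SDs and calls at 54 and 162 µg include them. The division by Saa3 was made after the values were seen and describes these arrays, and no test was made on it.

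**Figure D3:**
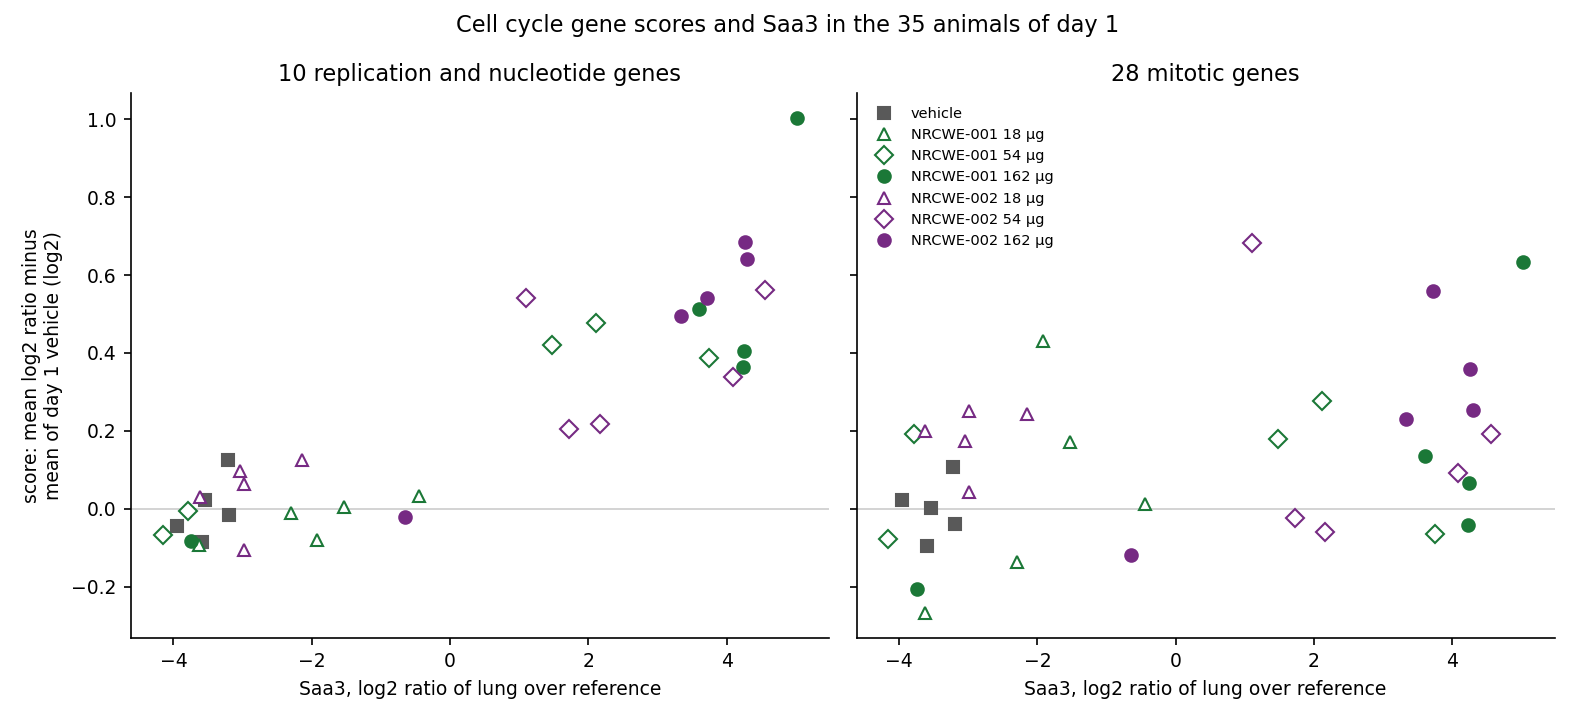
Scores of the 10 replication genes (left) and the 28 mitotic genes (right) against the Saa3 log2 ratio in the 35 animals of day 1. Each point is 1 animal, with colour for the particle, shape for the dose and squares for vehicle. On the left the 16 animals with Saa3 above 0 lie at 0.21 to 1.00 and the other 19 at -0.11 to 0.12, and on the right the sets overlap.

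Single arrays decided the calls at 162 µg. Without replicate 5 of NRCWE-001, 5 members were called (Mcm2, Mcm5, Mcm6, Mcm7 and Rrm1), with Mcm2 at a log2 fold change of 0.79, beside 1.88% of all genes. Without replicate 5 of NRCWE-002, 6 were called (the same 5 and Tyms), with Mcm7 at 0.61, beside 1.4% of all genes. Each animal was left out in turn, and the number called ran from 0 to 5 for NRCWE-001 and from 0 to 6 for NRCWE-002. With the slide as a fixed term, Mcm2, Mcm3, Mcm5, Mcm7 and Pcna passed at 162 µg of NRCWE-001 beside 4.12% of all genes. Mcm2, Mcm5, Pcna and Rrm1 then passed at 162 µg of NRCWE-002 beside 1.96%. Mcm2, Mcm5 and Mcm7 then passed at 54 µg of NRCWE-002, beside 1.51% of all genes.

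Replication scores were also compared within slides. An exposed and a vehicle animal shared a slide in 3 pairs each at 54 and 162 µg of NRCWE-001 and in 2 pairs each for NRCWE-002. The exposed animal was higher in all 10 pairs, by 0.24 to 0.49 at 162 µg and 0.26 to 0.49 at 54 µg of NRCWE-001, and by 0.54 to 0.73 at 162 µg and 0.30 to 0.38 at 54 µg of NRCWE-002. On each slide the same vehicle animal served for both doses, so these pairs are not independent. None of the 4 animals with low Saa3 was in such a pair. At 18 µg the differences ran from -0.22 to 0.05 (NRCWE-001) and from -0.02 to 0.17 (NRCWE-002).

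No mitotic member passed the test against vehicle on day 1 at any dose. Mki67, the proliferation antigen, had log2 ratios of -4.24, -3.91, -3.93, -3.86 and -4.34 in vehicle lungs. It had -3.95, -3.70, -4.01, -2.89 and -4.52 after 162 µg of NRCWE-001, where the groups overlapped and the log2 fold change was 0.24 (SE 0.25). After 162 µg of NRCWE-002 it had -3.92, -3.22, -3.29, -3.05 and -4.30, 0.50 above vehicle on the log2 scale with an SE of 0.25 and an adjusted p of 0.52. Birc5, or survivin, a partner of Aurora B, had the largest mitotic difference at this dose, 0.57 (SE 0.28, adjusted p = 0.521), followed by Melk, a mitotic kinase (0.53, SE 0.25). Top2a, which untangles DNA, had log2 fold changes of 0.12 and 0.28 at 162 µg of NRCWE-001 and NRCWE-002. Cdk1 had 0.02 and 0.04, Ccnb1 had -0.03 and 0.02, and Plk1 had -0.08 and 0.02. Cdk1 is the median of 2 probes, of which 1 was well above background on 8 arrays only. Ccnb1 is the median of 3 probes, well above background on 54, 69 and 30 arrays. At 162 µg of NRCWE-002 the log2 fold changes of these 3 probes were -0.02, 0.23 and 0.20. Of the 11 members with several kept probes, Tyms was the only replication member.

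The score of replication minus mitotic members compares the groups within each animal. For NRCWE-001 at 162 µg it was 0.32 ± 0.11 (SD, n = 5), with all 5 animals between 0.12 and 0.41, against -0.07 to 0.02 in vehicle lungs. For NRCWE-002 at 162 µg it was 0.21 ± 0.17 (SD, n = 5), from -0.02 to 0.39. The 54 µg groups had 0.14 ± 0.25 (SD, n = 5), from -0.20 to 0.45, for NRCWE-001 and 0.20 ± 0.20 (SD, n = 5), from -0.14 to 0.37, for NRCWE-002. The 18 µg groups had -0.07 ± 0.28 (SD, n = 5), from -0.51 to 0.18, and -0.14 ± 0.044 (SD, n = 5), from -0.19 to -0.08. So the spread within some exposed groups was much wider than among vehicle lungs. The ranges of the doses overlapped for NRCWE-001, and for NRCWE-002 only those of 18 and 162 µg did not overlap. These differences were not tested.

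Other genes of DNA replication also lay above vehicle. Of the 24 further replication genes, such as Cdc6, Gins1, Rfc4 and Fen1, all 24 had a log2 fold change above 0 at 54 and 162 µg of both particles on day 1. Their medians were 0.23, 0.34, 0.39 and 0.39 for NRCWE-001 54 and 162 µg and NRCWE-002 54 and 162 µg. At an unadjusted p below 0.05 the counts were 3, 12, 12 and 13 of 24, and the shares of all genes for these groups are given above. None of the 24 was called, beside 0%, 0.664%, 0.113% and 0.59% of all genes. The members vary together, and these counts too are not read as counts of independent genes. Gins1, a subunit of the complex that activates the helicase, had a log2 fold change of 0.51 (SE 0.18) at 162 µg of NRCWE-001 and 0.61 (SE 0.18) at 162 µg of NRCWE-002. Among 37 further mitotic genes the medians at 162 µg were 0.03 and 0.16, and 1 and 2 genes were higher at an unadjusted p below 0.05. The 13 G1 cyclins, kinases and E2F genes had medians of 0.08 and 0.12, and the 13 cell cycle inhibitors -0.01 and 0.03, with 0 called in either list. Among the inhibitors, Cdkn1a, or p21, had 0.78 (SE 0.25, adjusted p = 0.16) at 162 µg of NRCWE-002.

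Neutrophil markers were higher in the same groups. Of 10 listed, 9 were measured, and 7 of these were well above background on all 69 arrays, with Ngp on 38 and Camp on 51. Their mean log2 ratio was 1.99 ± 0.21 (SD, n = 5) in vehicle lungs of day 1, with a range of 1.73 to 2.25. It was 2.58 ± 0.49 (SD, n = 5) at 162 µg of NRCWE-001, with a range of 1.94 to 3.19, and 2.48 ± 0.28 (SD, n = 5) at 162 µg of NRCWE-002, with a range of 2.09 to 2.78. At an unadjusted p below 0.05, 6 and 5 of 9 were higher, and 2 and 0 were called. The part of these cells in the replication result was not tested.

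On day 28 the replication members' medians lay closer to vehicle. At 162 µg their median log2 fold change was 0.14 (NRCWE-001) and -0.01 (NRCWE-002), and 0 of 10 had an unadjusted p below 0.05 for either particle. Mcm2 had log2 ratios of -2.86, -2.98, -2.68 and -2.75 in the 4 vehicle lungs of day 28. It had -2.97, -2.62, -2.72, -2.26 and -2.53 at 162 µg of NRCWE-001 and -3.04, -2.42, -2.94, -2.96 and -2.81 at 162 µg of NRCWE-002, so that all 3 groups overlapped. At both particles all 10 replication members had a larger effect of 162 µg on day 1 than on day 28, while all genes were split almost evenly for NRCWE-001 (8798 against 8830) and 9456 against 8172 for NRCWE-002. In the test of the difference between days, 0 members and 0% of all genes were called for either particle. At an unadjusted p below 0.05, 2 of 10 replication members were lower on day 28 for NRCWE-001 and 6 of 10 for NRCWE-002. The lowest adjusted p was that of Rrm1, the large subunit of ribonucleotide reductase, with a difference of -0.57 (SE 0.16, adjusted p = 0.441) for NRCWE-002.

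For NRCWE-001 the mitotic members had larger differences on day 28. At 162 µg on day 28 all 28 had a log2 fold change above 0, with a median of 0.30, and 23 of 28 had a larger effect than on day 1. The members vary together, so that these are not counts of independent genes. None was called, beside 0.0511% of all genes, and 5 of 28 had an unadjusted p below 0.05, beside 7.36% of all genes. With the slide as a term the count at an unadjusted p below 0.05 was 0, and when each animal was left out it ran from 1 to 7. Cenpe, a kinetochore motor that moves chromosomes along the spindle, had vehicle values of -3.51, -3.19, -3.09 and -3.13. After 162 µg of NRCWE-001 they were -2.98, -2.47, -2.71, -2.65 and -2.54, all above the vehicle lungs. It was the 1 member so separated, beside 0.851% of all genes, and its log2 fold change was 0.56 (SE 0.20, adjusted p = 0.394). Spc25, a part of the Ndc80 kinetochore complex, had the largest difference of any member, 0.59, but its SE was 0.43 and its values of -3.39 to -1.33 overlapped the vehicle range of -3.72 to -2.28. Nusap1, a spindle protein (0.50), and Birc5 (0.47) followed. Top2a (0.44), Tyms (0.40), Ccnb1 (0.31), Mki67 (0.24), Mcm2 (0.20), Pcna (0.12), Plk1 (0.09), Cdk1 (0.08) and Mcm5 (-0.01) had smaller differences, given as log2 fold changes. Cdkn1a, the inhibitor p21, had 0.70 (SE 0.27) at this dose and 0.85 (SE 0.27) at 162 µg of NRCWE-002, with adjusted p of 0.453 and 0.376.

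The mitotic score on day 28 at 162 µg of NRCWE-001 was 0.19, 0.46, 0.23, 0.37 and 0.47, with 4 of 5 animals above the 4 vehicle animals, which ran from -0.19 to 0.19. Only 1 exposed animal shared a slide with a vehicle animal, and their difference was -0.01. The mitotic score at 162 µg of NRCWE-002 was -0.27, 0.07, -0.13, -0.02 and 0.47. The median log2 fold change of the mitotic members was 0.00 and 14 of 28 were above 0. Ccnb1 (-0.30), Top2a (0.29), Tk1 (0.28) and Pbk, a mitotic kinase (-0.25), had the largest log2 fold changes, and 0 members were called beside 0.00567% of all genes. The dose effect on day 28 called 0 members for NRCWE-001, beside 0.686% of all genes, and 0 for NRCWE-002, beside 0%.

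**Figure D4:**
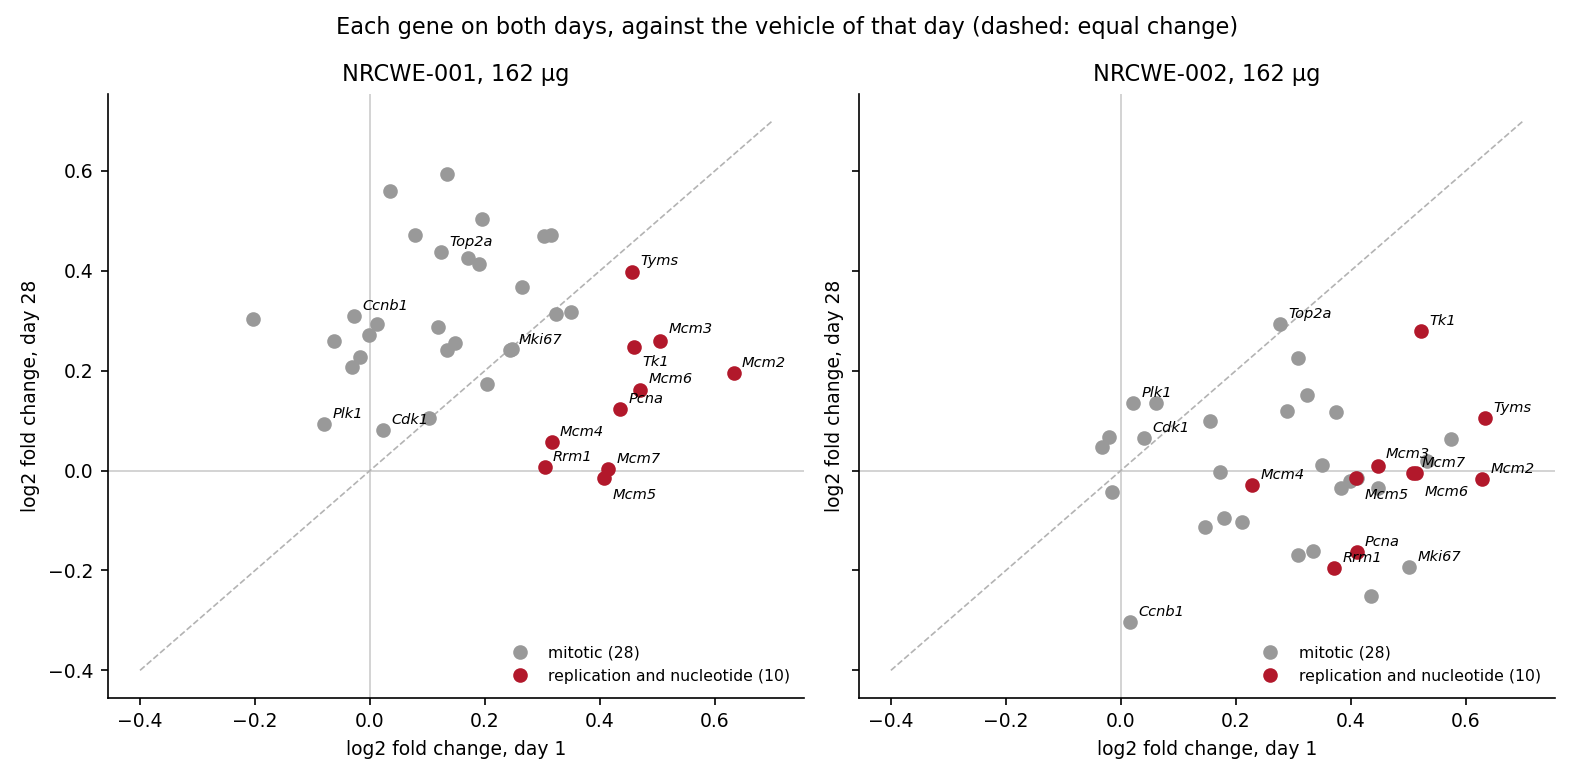
Log2 fold change of 162 µg against vehicle on day 28 (y axis) against that on day 1 (x axis) for each member, with 1 panel for each particle. Each point is 1 gene, coloured as a replication or a mitotic member. All 10 replication members lie on the day 1 side of the diagonal in both panels, while 23 of 28 mitotic members lie on the day 28 side for NRCWE-001 and 6 of 28 for NRCWE-002.

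No member was called at the lower doses of day 28. At 18 µg of NRCWE-001 the medians were -0.05 for the replication and 0.07 for the mitotic members, with 0 members called beside 0.193% of all genes. The medians at 54 µg of NRCWE-001 were -0.17 and -0.11, with 0 called beside 0.00567%. Those at 54 µg of NRCWE-002 were 0.01 and 0.09, with 0 called beside 0%. At 18 µg of NRCWE-002 they were 0.13 and 0.25, and 1 of 10 and 6 of 28 had an unadjusted p below 0.05, beside 6.51% of all genes, with 0 members and 0% of all genes called. Birc5 (0.60), Aurka, the Aurora A kinase (0.53), Cdc20, an activator of the anaphase-promoting complex (0.50), and Tk1 (0.48) had the largest log2 fold changes among these. Replicate 2 of all 3 NRCWE-002 groups of day 28 was among the arrays that correlated least with the rest.

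**Figure D5:**
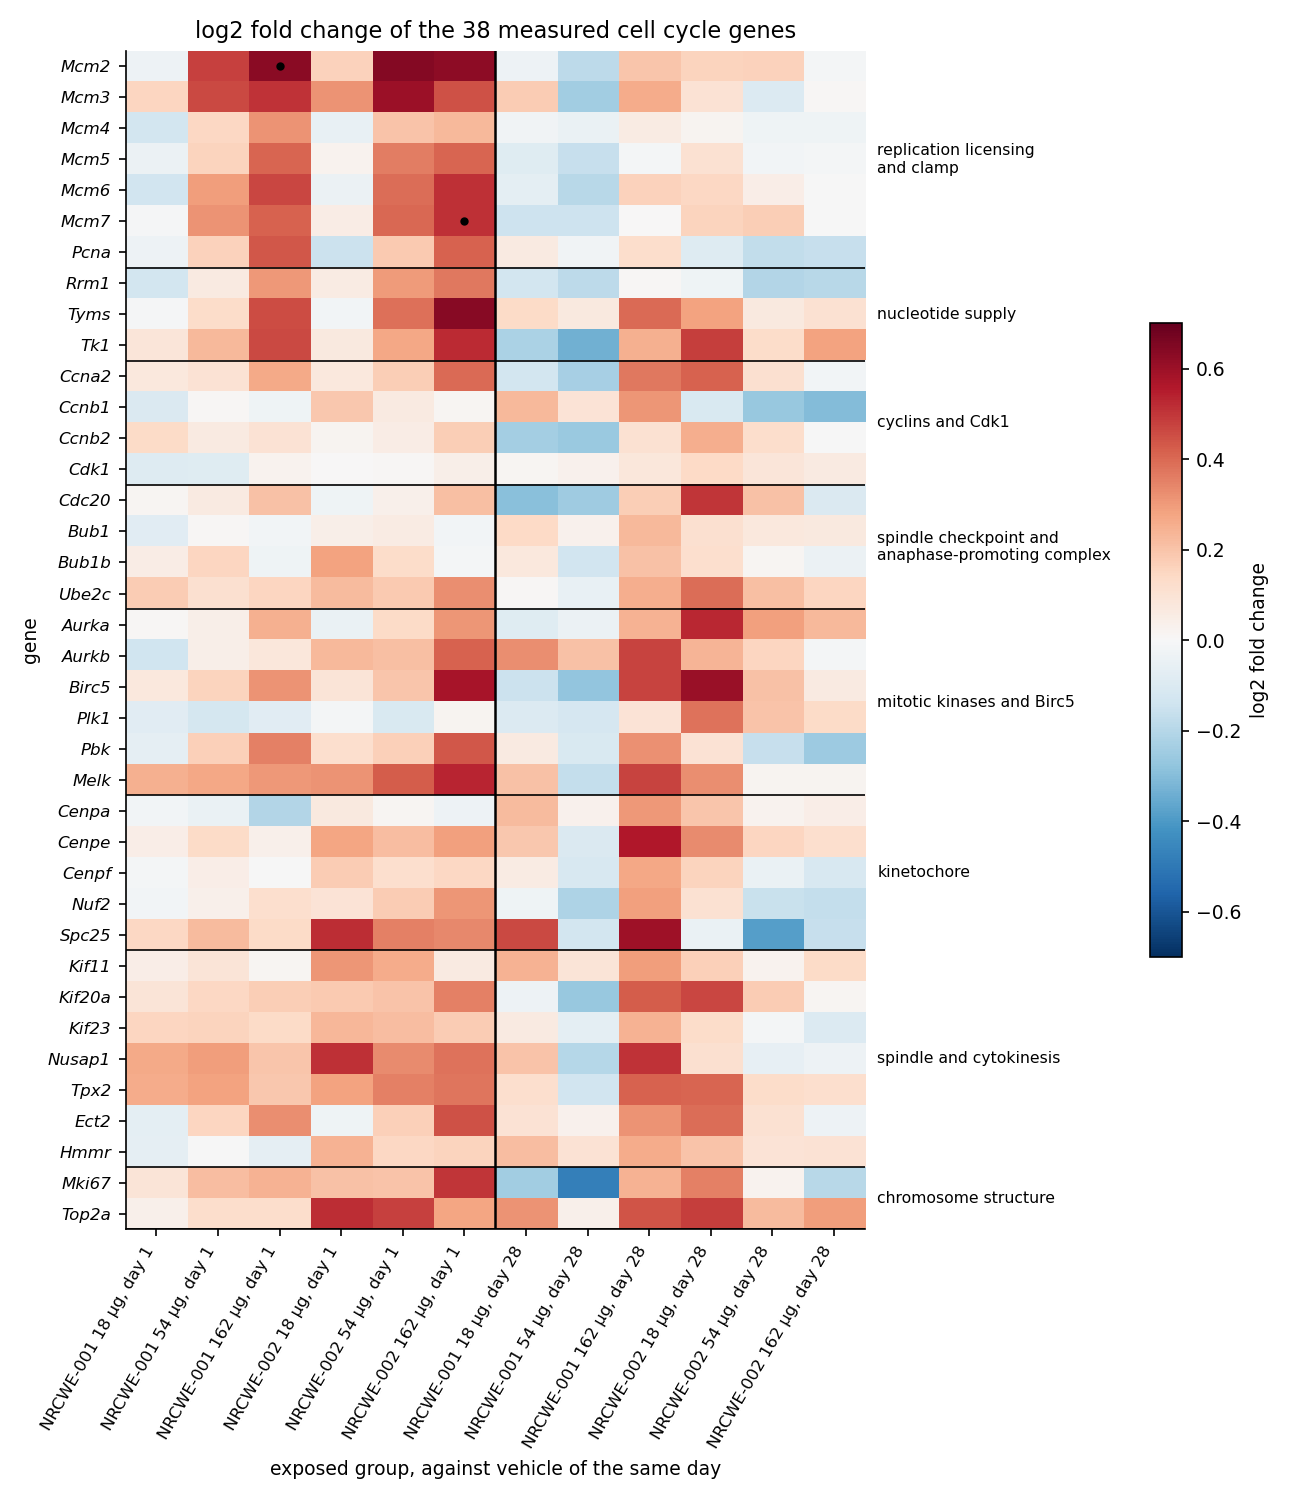
Log2 fold change against the vehicle of the same day (colour) for each of the 38 members (rows, by role) in the 12 exposed groups (columns, by day, particle and dose), with a black dot where the test was passed. On day 1 the rows of DNA replication lie above 0 at 54 and 162 µg, with medians of 0.19 and 0.45 (NRCWE-001) and 0.37 and 0.48 (NRCWE-002). On day 28 the mitotic rows are all above 0 at 162 µg of NRCWE-001.

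The particles were compared at the same doses by the mean of the 3 doses. On day 1 no member was called, beside 0.108% of all genes, and 35 of 38 members had a difference above 0, that is, a higher mean for NRCWE-002, where 50.3% of all genes were above 0. The members vary together, so that their count is not one of independent genes. The difference of NRCWE-002 minus NRCWE-001 was 0.12 for Mcm2 (95% interval -0.07 to 0.31) and 0.09 for Mcm5 (-0.06 to 0.24). It was -0.04 for Pcna (-0.23 to 0.15), 0.14 for Tyms (-0.09 to 0.37) and 0.33 for Top2a (0.01 to 0.65, adjusted p = 0.557). These intervals show which differences the data allow, and a test that did not pass does not make the particles alike.

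On day 28 the particles lay largely on different slides: 2 of the 11 slides with exposed animals held both, with 8 of the 30 animals, so that particle and slide are partly confounded. Without a slide term, Ccnb1 was lower with NRCWE-002 by a log2 difference of -0.44 (SE 0.10, adjusted p = 0.00944), while Plk1 (0.28, SE 0.08) and Tk1 (0.40, SE 0.11) were higher, both with an adjusted p of 0.0211. These 3 of 38 members stood beside 6.74% of all genes. Group means of Ccnb1 at 18, 54 and 162 µg were -3.08, -3.21 and -2.99 for NRCWE-001 and -3.41, -3.57 and -3.61 for NRCWE-002, against -3.30 in vehicle lungs. None of the 3 genes was called for either particle against vehicle. Between the particles, Ccnb1 was not called with the scanner software's processed signals, the brightest probe, or probes above background on every array. Plk1 and Tk1 were called with each of these. With the slide or the scan day as a term 0 members were called and the difference of Ccnb1 was 0.046 (slide) and 0.0625 (scan day), opposite in sign. The 2 shared slides gave 4 pairs of animals at the same dose, a comparison chosen after seeing the data. In these pairs the difference of Ccnb1 ran from -0.04 to 0.35, that of Plk1 from -0.01 to 0.47 and that of Tk1 from 0.08 to 0.71. Without replicate 2 of NRCWE-002 162 µg, and with no slide term, 1 member (Ccnb1) was called, beside 3.53% of all genes. Of the 24 further replication genes, Orc1, Rfc3 and Clspn were called lower in the same comparison without a slide term. Of the 37 further mitotic genes, Ttk, Dlgap5, Ckap2 and Depdc1a were called lower and Incenp, Ncapd2 and Pttg1 higher. These calls too stood beside 6.74% of all genes, and results with a slide term are not given for these genes. Of the B lymphocyte markers, 3 of 6 were called higher with NRCWE-002 than with NRCWE-001. Their mean log2 ratio was 0.98 ± 0.35 (SD, n = 4) in vehicle lungs of day 28. At 18, 54 and 162 µg of NRCWE-002 it was near that, at 1.01 ± 0.58, 1.11 ± 0.34 and 0.81 ± 0.40 (SD, n = 5). With NRCWE-001 it was 0.35 ± 0.11, 0.52 ± 0.14 and 0.90 ± 0.41 (SD, n = 5), lower at 18 and 54 µg. All 6 cardiac muscle markers had differences above 0 between the particles, with a median of 0.78 and 0 called. Averaged over the cardiac markers, vehicle lungs of day 28 stood at 1.14 ± 1.09 (SD, n = 4) on the log2 scale, from 0.46 to 2.77. Lungs given 18, 54 and 162 µg of NRCWE-002 stood at 2.75 ± 1.08, 1.80 ± 1.70 and 3.05 ± 0.76 (SD, n = 5). With NRCWE-001 these doses gave 2.37 ± 1.82, 1.87 ± 1.12 and 1.32 ± 1.32 (SD, n = 5). Even at 162 µg of NRCWE-002 the animals, at 2.13 to 4.09, overlapped the vehicle lungs. The part of the B lymphocyte and cardiac markers in the particle result was not tested.

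Between vehicle lungs of day 28 and day 1 no member was called, where 0% of all genes were called. The log2 differences of day 28 minus day 1 were 0.06 for Mcm2, 0.09 for Mcm5, 0.18 for Pcna, -0.15 for Tyms and 0.36 for Mki67. They were -0.09 for Top2a, -0.14 for Cdk1, 0.00 for Ccnb1 and -0.17 for Plk1, each with a 95% interval that included 0.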

How the data were processed

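RNA of each lung (Cy5) was hybridised against Universal Mouse Reference RNA (Cy3) on Agilent arrays without dye swap. The authors deposited LOWESS-normalized log2 ratios, the main values here, beside scanner intensity values and 0 or 1 spot flags, which gave the probe filter and 2 alternatives. Direction was taken from the dyes in the labels. Outlier spots were left out. Probes well above background in the lung channel on at least 4 arrays were kept, accessions were matched to RefSeq symbols, and the median over the kept probes of a gene was taken. Of 41174 probes 27479 had a symbol and 36452 were kept. Group means of all 69 arrays were fitted for 17628 genes in limma 3.58.1 under R 4.3.3, with 55 residual degrees of freedom and Benjamini-Hochberg adjustment within each of 21 comparisons at 0.05. Two-sided tests were used and the step was tested on simulated data. The number of arrays limits the precision.

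The members, the lists of further genes and markers, and the split into replication and mitotic members were chosen with earlier results of these data known. Named were members that were called, the 4 largest changes in each comparison at 162 µg, and fixed representatives (Mki67, Top2a, Cdk1, Ccnb1, Plk1, Mcm2, Mcm5, Pcna and Tyms). Genes named beyond this rule, Saa3 included, were chosen after their values were seen. Replicate numbers were given in accession order. Alternatives were 2 other normalizations, median centring, slide and scan day as terms, 2 filters, the brightest probe, a trended robust fit and leaving out arrays.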

Additional observations from a re-analysis of the deposited data

Results flagged for a closer look

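Animals that stood apart within a group were sought in 168 sets of values (3 scores and 9 representative members in 14 groups) by the gap to the nearest animal over the range of the group. There were 14 such values, from 10 animals, and chance gives about 1 set in 20. On day 1 the animals were replicate 5 of NRCWE-002 162 µg (replication score -0.0217, lowest of 5), replicate 5 of NRCWE-002 18 µg (score of all members 0.0031 and Pcna -2.20, both lowest), replicate 4 of NRCWE-002 54 µg (Pcna -1.36, highest) and vehicle replicate 3 (Tyms -2.69, highest). On day 28 replicate 2 of NRCWE-002 54 µg was highest for Mcm2 (-2.19) and lowest for Pcna (-2.46) and Tyms (-3.51), and it was one of the 4 arrays with a low correlation to the rest. Replicate 2 of NRCWE-002 162 µg, another of them, was highest for Mcm5 (-1.87). Replicate 1 of NRCWE-002 54 µg had the highest replication score (0.17). In NRCWE-001 54 µg, replicate 1 was highest for Ccnb1 (-2.59) and lowest for Plk1 (-3.35), and replicate 4 was highest for Mki67 (-3.88). Vehicle replicate 2 was lowest for Plk1 (-2.89).

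The particles were called different on day 28, as the log2 difference of NRCWE-002 minus NRCWE-001, for Ccnb1 (-0.44), Plk1 (0.28) and Tk1 (0.40), 3 of 38 members beside 6.74% of all genes. With the slide or the scan day as a term 0 members were called, and Ccnb1 was 0.046 and 0.0625.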

How the results depend on the processing

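No paired analysis was possible because replicate numbers were given in accession order and pair no animals. The slide, which is no replicate number, was used as a block instead. The number of members called at 162 µg of NRCWE-001 on day 1 (1 as reported) was 0 with the scanner software's processed signals, without the filter, with the brightest probe and with a trended robust fit, 5 and 6 with the slide as a fixed and a random term, 6 with the scan day, and 0 to 5 when each array was left out. At 162 µg of NRCWE-002 (1 as reported) it was 2 with normexp and loess and with probes above background on every array, 4, 7 and 8 with the slide fixed, the slide random and the scan day, and 0 to 6 when each array was left out. At 54 µg of NRCWE-002 (0 as reported) it was 3, 4 and 1 with these 3 terms. For the dose effect on day 1, NRCWE-001 (1 as reported) had 0 with processed signals, 8, 7 and 8 with the 3 terms, and 0 to 5 when each array was left out, and NRCWE-002 (2 as reported) had 5, 6 and 8, and 0 to 6. All members called in these day 1 comparisons with slide or scan day terms were replication members. The share of all genes called rose with these terms as well. At 162 µg the slide fixed, the slide random and the scan day gave 4.12%, 3.5% and 4.07% for NRCWE-001. For NRCWE-002 they gave 1.96%, 2.84% and 3.99% at 162 µg and 1.51%, 1.27% and 0.942% at 54 µg. The shares for the dose effect were 7.64%, 6.5% and 6.64% (NRCWE-001) and 2.39%, 3.02% and 4% (NRCWE-002). For NRCWE-002 against NRCWE-001 on day 28 (3 as reported) the number of members called was 0 with each of the 3 terms. It was 1 without the 4 arrays that stood apart (chosen after seeing the data), beside 2.46% of all genes. When each array was left out it ran from 1 to 6, beside 3.2% to 10.2% of all genes. Ccnb1 turned from -0.44 to 0.046 with the slide fixed and to 0.0625 with the scan day. Median fold changes and scores moved by less than the spread between animals under every alternative run. For the medians that spread was an SD of 0.20 (all members), 0.18 (replication) or 0.23 (mitotic). This limit is wide and says little on small medians. At 162 µg of NRCWE-001 on day 1, leaving out each array took the mitotic median from -0.0024 to 0.21. The replication median there ran from 0.29 to 0.58. The cause of these shifts was not tested.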
